A study of Rattus norvegicus with 16 samples.

Results

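The data described here set the livers of 4 rats that had fasted into phase 3 and then eaten again for 2 days, the group labelled P3r2, against the livers of 4 rats killed in phase 3 of the fast, the group labelled P3. The comparison asks what the liver changed in its gene expression between the end of a long fast and the second day of food. All groups were male Sprague Dawley rats with no genetic change named, and the liver of each animal was hybridised to 1 Affymetrix Rat Exon 1.0 ST array, with no technical replicates. The series holds 16 arrays in 4 groups of 4. The other 8 arrays, from fed rats and from rats in phase 2 (P2), helped to estimate the spread between animals, and the fed group served as the level before fasting. The sources used here do not state ages, how long each fast lasted, the diet or the hour of sampling. The members were 13215 genes, each having its own row among the 18885 tested. Each gene was represented by its row of highest mean signal.

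In a prolonged fast, a rat first lives mainly on fat while body protein is spared (phase 2), and later, when fat runs low, breaks down protein at a rising rate (phase 3). The fasting liver makes glucose and ketone bodies, turns amino acid nitrogen into urea, and shuts down the synthesis of fat and cholesterol. Food brings glucose, amino acids and insulin back to the liver, and insulin acts there through the SREBP and FoxO transcription factors, among others. Re-feeding after starvation is known for a strong return of fat synthesis.

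Values are log2 signals as deposited, so a difference of 1 is a factor of 2. A gene was called when its adjusted p in limma, over the 18885 rows, was below 0.05, and "rose" and "fell" are used for called genes in P3r2 against P3. Numbers in parentheses after a gene are the log2 change P3r2 minus P3 ± its standard error, with 4 animals in each group. Per-array values are given in the order of the animals' numbers, 1 to 4. No detection limit was set. Values below the median row mean of 4.39 may lie near the background of the array, so the size of a change to or from such values is uncertain. In a whole liver, fewer cells of a type and less RNA per cell cannot be told apart.

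The arrays of the re-fed rats were more alike than those of the phase 3 rats. Pearson correlations across rows ran from 0.986 to 0.992 among the 4 P3r2 arrays, from 0.966 to 0.987 among the 4 P3 arrays and from 0.924 to 0.961 between the groups. The median standard deviation of brighter genes (those above the median row mean, 8249 genes) was 0.161 in P3r2 and 0.268 in P3. P3 3 stood apart, with an array weight of 0.38 (a weight of 1 is an array of average quality). Of the genes that rose with re-feeding, as counted in the next paragraph, P3 3 was the lowest phase 3 array in 1119 (62.9%). P3r2 4 was the most distant array of its group by single genes. It lay far from the other 3 for 431 brighter genes (5.22%), where P3 3 did so for 226 (2.74%). Hepatocyte markers were bright in every array, among them Ttr (transthyretin), Ahsg (fetuin-A) and Alb (albumin). Those 3 rose in P3r2 against P3, and the other 4 measured markers were not called. Of those 4, Cps1 changed by -0.30, with all re-fed values below all phase 3 values. The summed signal of the 7 measured hepatocyte markers lay between 15.29 and 15.49 in P3 and between 15.65 and 15.69 in P3r2 on the log2 scale.

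Re-feeding was followed by a wide change in both directions. In P3r2 against P3, 1778 of the 13215 genes rose (13.5%) and 1311 fell (9.92%). Among the 8249 brighter genes the shares were 20% and 14.6%. The rises reached further than the falls: 851 genes rose and 469 fell at least 2-fold, and 89 rose and 31 fell at least 8-fold. For 2112 genes (16%) all 4 re-fed values lay above all 4 phase 3 values, and for 1625 (12.3%) they lay below. The median change over all genes was -0.03. Without P3 3, the rows called higher and lower numbered 1746 and 1493, against 1975 and 1498 with it. After quantile normalization of the arrays 48.3% of the called genes had risen, where it was 57.6% as deposited, so which direction held the majority depended on the scaling. The plot of gene levels in both groups shows the spread of these changes.

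**Figure D1:**
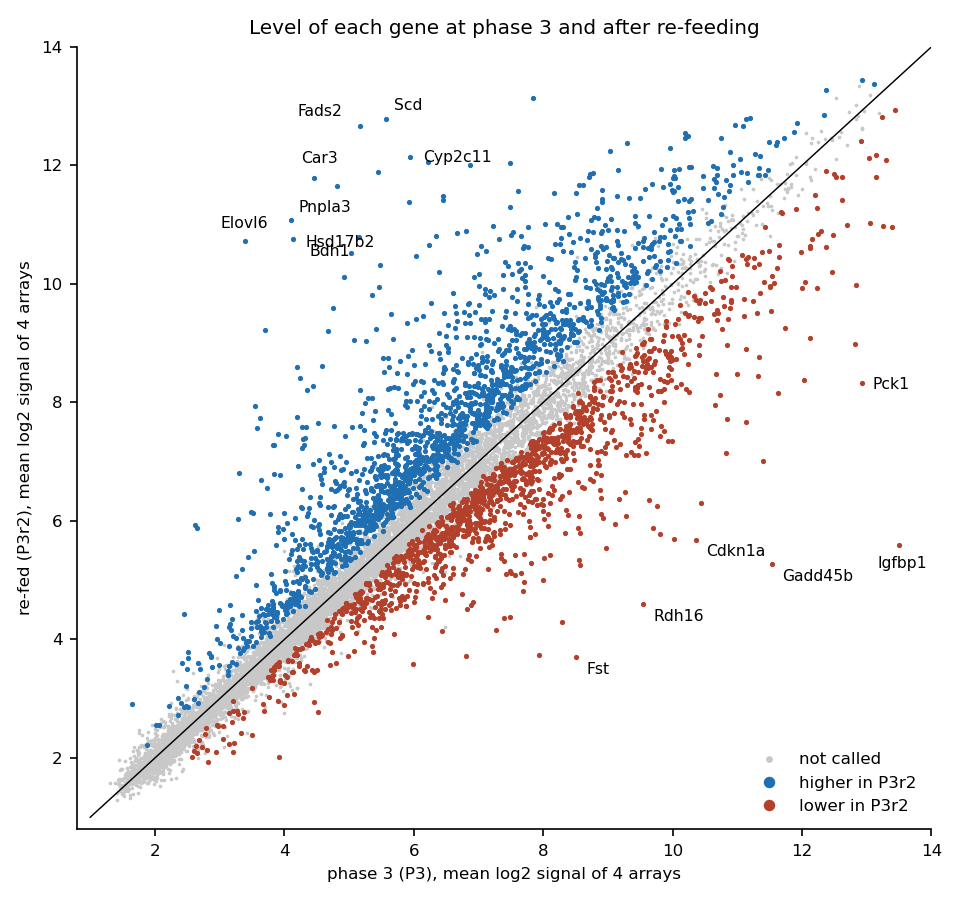
Mean log2 signal of each gene over the 4 P3 arrays (horizontal axis) and the 4 P3r2 arrays (vertical axis). Blue points are the 1778 genes that rose, red points the 1311 that fell, grey points the genes not called, and the line marks equal levels; the named genes are among the furthest from it.

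The 15 largest rises, among called genes whose groups did not overlap, were led by enzymes that build and desaturate fatty acids. They were Fads2 (7.495 ± 0.37), Elovl6 (7.34 ± 0.28), Car3 (7.34 ± 0.19), Scd (7.22 ± 0.42), Pnpla3 (6.98 ± 0.59), Fads1 (6.84 ± 0.34), Hsd17b2 (6.63 ± 0.20), Pklr (6.44 ± 0.33), Cyp2c11 (6.19 ± 0.50), Fabp1 (5.84 ± 0.49), Bdh1 (5.63 ± 0.19), Inhbe (5.52 ± 0.45), Serpina6 (5.49 ± 0.33), Rgn (5.47 ± 0.55) and Thrsp (5.30 ± 0.14). The 15 largest falls were led by genes of growth restraint and of glucose output. They were Igfbp1 (-7.91 ± 0.22), Gadd45b (-6.27 ± 0.17), Rdh16 (-4.95 ± 0.19), Fst (-4.81 ± 0.18), Cdkn1a (-4.67 ± 0.41), Pck1 (-4.60 ± 0.35), Pptc7 (-4.38 ± 0.18), Slc13a5 (-4.33 ± 0.61), Kcnma1 (-4.19 ± 0.32), Ddit4 (-4.13 ± 0.18), Ppargc1a (-4.01 ± 0.29), Nr4a1 (-3.998 ± 0.24), Slc38a2 (-3.83 ± 0.22), Dcn (-3.81 ± 0.39) and Slc1a2 (-3.68 ± 0.37). Several of these have roles outside the pathways described further on. Among the falls, Slc13a5 takes up citrate and Kcnma1 is a potassium channel. Car3, a carbonic anhydrase abundant in male rat liver, read 4.71, 4.79, 4.38 and 3.92 in P3 and 11.84, 11.96, 11.54 and 11.81 in P3r2. Hsd17b2, which inactivates estradiol and testosterone, went from 4.13, 3.76, 4.398 and 4.24 to 10.92, 11.17, 10.66 and 10.27. Rdh16, a retinol dehydrogenase, went the other way, from 9.22, 9.41, 9.94 and 9.64 to 4.54, 4.35, 4.78 and 4.73. In each of these 3 genes the groups lay more than 4 log2 units apart and did not overlap.

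Genes of fat synthesis rose together after re-feeding. Of the 25 measured genes of fatty acid and triglyceride synthesis, 19 rose and 2 fell, with a median change of 3.16 against -0.03 over all genes. Scd, the desaturase that makes oleate, read 4.82, 4.80, 7.402 and 5.25 in P3 and 12.84, 12.85, 12.80 and 12.67 in P3r2. P3 3 was the highest of its group, and still lay more than 5 log2 units below every re-fed array. The difference was 7.22 log2 units (SE 0.42, adjusted p = 1.08e-08). Elovl6, which lengthens palmitate to stearate, read 3.55, 3.60, 3.03 and 3.40 at phase 3 and 11.39, 10.30, 10.64 and 10.60 after food, a rise of 7.34 (SE 0.28, adjusted p = 8.07e-11). Its re-fed level also passed the fed level of 7.82 ± 0.61 (SD, n = 4), by 2.91 log2 units.

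Most of the other steps rose. Acly, which makes cytosolic acetyl-CoA from citrate, rose from 7.67, 7.61, 7.03 and 7.63 to 12.30, 12.04, 12.07 and 11.76. The 2 acetyl-CoA carboxylases, which make malonyl-CoA, rose as well: Acaca (3.16 ± 0.27) and Acacb (4.54 ± 0.21). Desaturases and elongases of polyunsaturated fatty acids followed, with Fads2 (7.495 ± 0.37), Fads1 (6.84 ± 0.34) and Elovl5 (2.81 ± 0.23). For esterification, Gpam (4.10 ± 0.42), the first acyltransferase of glycerolipid synthesis, and Dgat2 (1.72 ± 0.22) rose. In the opposite direction went Dgat1 (-0.78 ± 0.19), the other enzyme of the last step of triglyceride synthesis, and Lpin1 (-2.08 ± 0.41), a phosphatidate phosphatase, and for both genes the groups did not overlap. Fasn, Agpat2 and Mlxipl had no row of their own and were not analysed here.

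Regulators of the pathway rose too. Srebf1, which encodes the insulin-driven transcription factor SREBP-1, read 7.45, 7.67, 7.17 and 7.37 in P3 and 10.63, 10.45, 10.38 and 10.05 in P3r2, against 10.38 ± 0.40 (SD, n = 4) in fed rats. The re-fed arrays lay above all phase 3 arrays and around the fed mean. Thrsp and Mid1ip1, partner proteins of acetyl-CoA carboxylase and of the lipogenic programme, changed by 5.30 and 2.76. Pnpla3, which encodes a lipid droplet protein and is driven by SREBP-1, read 4.03, 4.18, 4.29 and 3.89 in P3 and 11.66, 11.56, 10.76 and 10.33 in P3r2. Its re-fed values, like those of Elovl6, lay above every fed array, whose mean was 6.01 ± 1.74 (SD, n = 4), and P3r2 minus fed came to 5.07 (adjusted p = 0.000371).

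Enzymes that feed the pathway with carbon and reducing power also rose. Pklr, the liver pyruvate kinase, went from 5.95, 6.13, 4.53 and 5.22 to 12.06, 11.88, 11.75 and 11.87, and Khk, which phosphorylates fructose, from 8.997, 9.02, 6.80 and 7.88 to 11.51, 11.48, 11.44 and 11.70. The fructose transporter gene Slc2a5 read 3.95, 4.63, 4.26 and 4.13 at phase 3 and 8.74, 8.27, 8.30 and 8.32 after re-feeding, above its fed level of 6.61 ± 0.59 (SD, n = 4) (P3r2 minus fed 1.80). In all 3 genes the groups lay apart. Of the 7 measured genes of the pentose phosphate pathway and NADPH supply, 5 rose and 1 fell (median 1.29). Me1 (malic enzyme), which makes cytosolic NADPH, read 6.39, 6.62, 8.04 and 7.39 in P3 and 10.82, 10.80, 9.85 and 10.73 in P3r2, where P3r2 3 was the low array. Idh1 changed by 2.77, Tkt (transketolase) by 2.25 and Taldo1 (transaldolase) by 0.79. The member that fell was H6pd (-2.19 ± 0.25), the hexose-6-phosphate dehydrogenase of the endoplasmic reticulum, with all P3 arrays above 10 and all P3r2 arrays below 9.

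**Figure D2:**
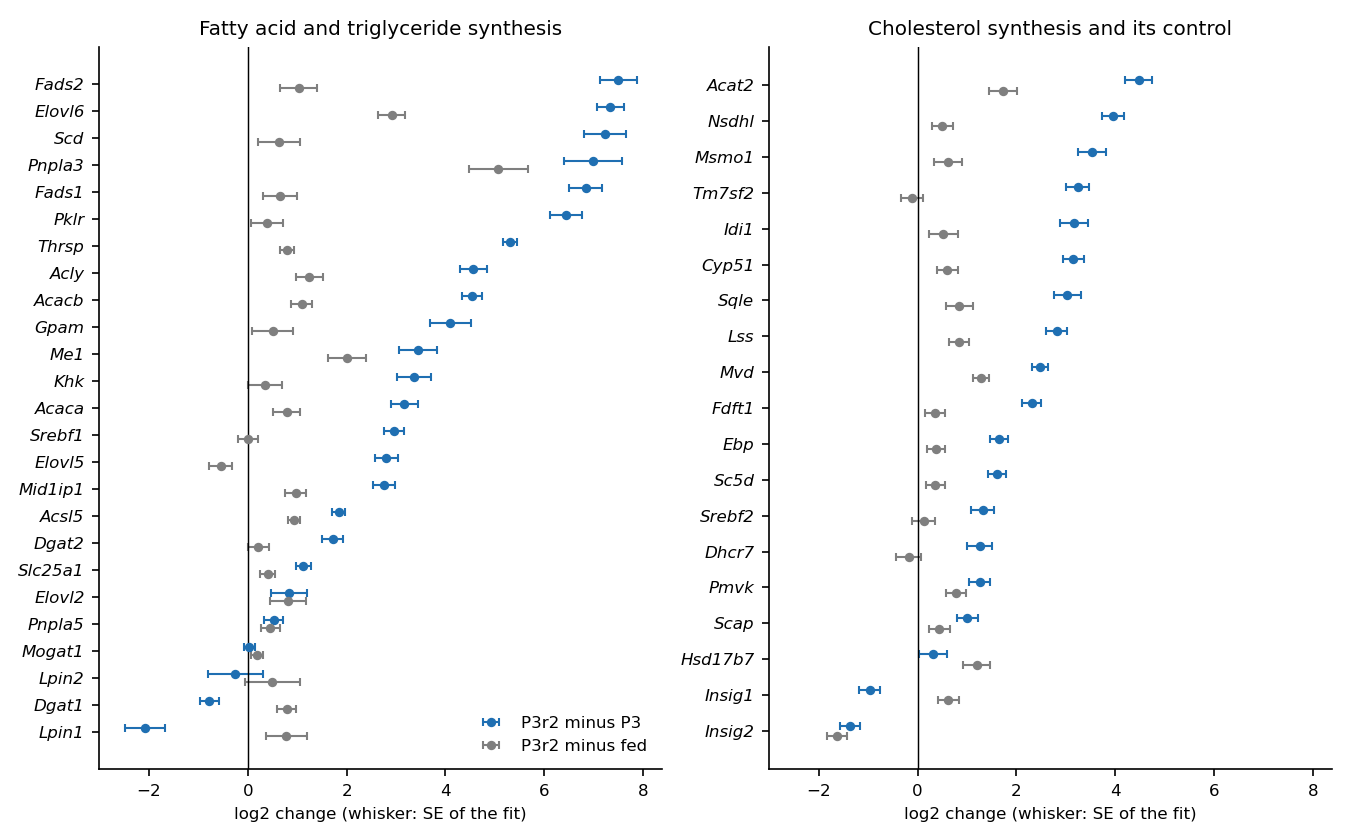
Log2 change of each measured gene of fatty acid and triglyceride synthesis (left) and of cholesterol synthesis and its control (right), as points with the standard error of the fit. Blue is P3r2 minus P3 and grey P3r2 minus fed, which share the P3r2 arrays; most blue points lie well above 0, and most grey points lie between -1 and 2.

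Most measured genes of cholesterol synthesis and its control rose. Of the 27 genes of the list 19 were measured, and 16 of these rose and 2 fell, with a median change of 2.31. Acat2, the cytosolic thiolase that starts the pathway, read 5.85, 4.95, 5.04 and 5.56 in P3 and 9.97, 9.52, 9.86 and 9.93 in P3r2, and its re-fed values lay above the fed level of 8.10 ± 0.54 (SD, n = 4) (P3r2 minus fed 1.72, adjusted p = 0.00367). Sqle (squalene epoxidase), the first oxygen-using step, read 5.19, 4.95, 5.16 and 5.38 and 8.02, 8.20, 8.47 and 8.13. The groups did not overlap in either gene. Between them in the pathway stood Pmvk (1.25 ± 0.21), Mvd (2.48 ± 0.16), Idi1 (3.16 ± 0.29) and Fdft1 (2.31 ± 0.20), and after them Lss (2.81 ± 0.21), Cyp51 (3.15 ± 0.21), Msmo1 (3.53 ± 0.28), Nsdhl (3.95 ± 0.22), Tm7sf2 (3.24 ± 0.22), Ebp (1.65 ± 0.18), Sc5d (1.61 ± 0.19) and Dhcr7 (1.26 ± 0.25). The controlling factor Srebf2 rose by 1.32 and Scap, which escorts it to the Golgi, by 1.01. Hsd17b7, a later step, was not called (0.32 ± 0.28, or 0.02 without P3 3). The 2 genes that fell were the retention proteins that hold SREBP in the endoplasmic reticulum. Insig1 read 13.14, 12.92, 13.37 and 13.15 in P3 and 12.29, 12.47, 12.01 and 11.92 in P3r2, against 11.55 ± 0.54 (SD, n = 4) in fed rats. Insig2 read 11.25, 10.88, 10.86 and 11.43 and 9.48, 9.75, 9.95 and 9.78, against 11.37 ± 0.34 (SD, n = 4). In both genes all re-fed arrays lay below all phase 3 arrays. Insig2 was also below fed after re-feeding (P3r2 minus fed -1.63, adjusted p = 0.000629).

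Genes of glucose output fell and genes of glycogen handling rose. Of 21 measured genes of gluconeogenesis and its cAMP-driven control, 12 fell and 4 rose, with a median change of -0.99. Pck1, which makes phosphoenolpyruvate in the cytosol, read 12.98, 12.88, 12.75 and 13.13 in P3 and 8.01, 9.09, 7.23 and 8.996 in P3r2. The re-fed arrays varied by almost 2 log2 units, yet all lay more than 3 below the lowest phase 3 array, and below the fed level of 11.51 ± 0.50 (SD, n = 4). The fall was 4.60 against P3 (SE 0.35, adjusted p = 2.18e-07) and P3r2 minus fed was -3.18 (adjusted p = 0.00024). G6pc1, the catalytic subunit of glucose-6-phosphatase, read 12.97, 12.89, 12.39 and 13.10 in P3 and 10.32, 9.30, 9.68 and 10.62 in P3r2. Here too the re-fed arrays lay below fed, at -1.67 against a fed mean of 11.65.

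The regulators fell with them. Ppargc1a, the coactivator PGC-1 alpha, read 10.37, 9.98, 8.82 and 10.03 in P3 and 5.73, 5.95, 5.89 and 5.57 in P3r2, with no overlap. Sik1, a kinase induced by cAMP, went from 11.03, 11.54, 10.57 and 11.41 to 7.86, 7.81, 7.59 and 7.43, and Crtc2 (-0.88 ± 0.14) fell too. The cAMP-responsive nuclear receptors fell in step: Nr4a1 (-3.998 ± 0.24), Nr4a2 (-1.37 ± 0.17) and Nr4a3 (-0.99 ± 0.14). Enzymes that pass amino acid carbon towards glucose fell, among them Got1 (-2.43 ± 0.22), Gpt (-1.45 ± 0.31) and Sds (-3.65 ± 0.54). The 4 genes that rose were Gpd1 (3.20 ± 0.26) and Gk (0.97 ± 0.21), which handle glycerol, Pck2 (0.73 ± 0.12), the mitochondrial form of the Pck1 enzyme, and Creb3l3 (1.15 ± 0.18), a liver transcription factor of the ER membrane.

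The promoter of Ppargc1a holds a cAMP response element by sequence, shown here because the gene fell together with the other cAMP-linked genes. The motif TGACGTCA was searched on both strands of RefSeq promoter windows (build GRCr8, 250 bases before to 50 after each start). It occurred in 525 of 27457 promoters (1.91%) and, among the 17 windows of the glucose output list, in this 1. It also stood in 2 of 21 windows of the fat synthesis list, those of Elovl5 and Pnpla3, which rose. The capitals mark the motif, from chr14:63634097-63634164 on the plus strand.
Ppargc1a: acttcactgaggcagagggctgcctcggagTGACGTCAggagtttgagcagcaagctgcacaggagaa

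On the storage side, Ppp1r3b, which brings protein phosphatase 1 to glycogen, read 6.57, 7.02, 5.22 and 6.12 in P3 and 10.78, 10.61, 10.88 and 10.35 in P3r2. Gys2 (liver glycogen synthase) rose by 0.83 and Pygl (liver glycogen phosphorylase) by 2.11, so a gene of glycogen synthesis and one of its breakdown both rose. Of the 13 measured genes of glucose uptake, glycolysis and glycogen, 7 rose and 2 fell (median 0.68). Of the brighter genes, as 12 of the 13 were, 20% rose and 14.6% fell, so the count of falls was near the background. The 2 that fell were Aldoa (-1.50 ± 0.19), the muscle-type aldolase, and Pfkfb3 (-1.84 ± 0.17), an enzyme that makes the glycolytic activator fructose 2,6-bisphosphate.

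Genes of the insulin receptor's docking proteins fell. Irs2, an insulin receptor substrate whose gene insulin represses through FoxO, read 9.41, 9.07, 8.03 and 9.37 in P3 and 5.67, 5.53, 5.03 and 5.94 in P3r2, against 5.71 ± 0.25 (SD, n = 4) in fed rats. The re-fed arrays lay around the fed mean and more than 2 log2 units below the lowest phase 3 array. Irs1 (-0.99 ± 0.25), Insr (-0.69 ± 0.21) and Foxo3 (-0.69 ± 0.13) fell too, as did the pseudokinases Trib3 (-2.65 ± 0.23) and Trib1 (-1.63 ± 0.26). Foxo1 was just short of the threshold (-0.67 ± 0.23, adjusted p = 0.053) and its adjusted p ran from 0.0235 without P3 3 to 0.166 without P3 2. The 4 rises were Enpp1 (1.23 ± 0.24) and Grb14 (1.13 ± 0.24), whose products dampen the receptor, Tsc2 (0.89 ± 0.19), a brake on mTORC1, and Akt2 (0.51 ± 0.16), a kinase that carries the insulin signal. Akt2 was not called without P3 2, P3 3, P3 4, P3r2 1, P3r2 2 or P3r2 3 (adjusted p from 0.0512 to 0.101). In all, 6 of 21 measured genes fell and 4 rose (median -0.27). All 21 were brighter genes, of which 14.6% fell and 20% rose, so the rises were not above the background. The fall of Insr was no longer called without P3 1, P3 2, P3 4, P3r2 2, P3r2 3 or P3r2 4, with adjusted p from 0.0512 to 0.0938.

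Most called genes of fatty acid oxidation rose, and the entry step fell. Of 27 measured genes, 16 rose and 2 fell, with a median of 0.56. After quantile normalization the counts were 13 and 5, and the median 0.36. Hadh, a dehydrogenase of the mitochondrial spiral, read 9.48, 9.47, 7.23 and 8.05 in P3 and 11.75, 11.69, 11.67 and 11.60 in P3r2, and Acsl1, which activates fatty acids, 10.71, 10.65, 9.02 and 9.47 and 12.35, 12.37, 12.31 and 12.17. P3 3 was the lowest array in both, and no re-fed array overlapped phase 3. Ehhadh, Acadm, Acadl, Acads, Hadhb and Decr1 rose by 0.71 to 1.91. The entry enzyme Cpt1a went the other way, from 11.02, 10.90, 10.38 and 10.44 to 9.43, 9.58, 8.91 and 9.62, and Ech1, which handles unsaturated fatty acids, fell by 0.88. Pdk4, a brake on pyruvate oxidation, was not called (-0.75 ± 0.27, adjusted p = 0.062) and its adjusted p ran from 0.00141 without P3 2 (-1.07) to 0.196 without P3 3 (-0.52). Ppara, the receptor that drives many of these genes in fasting, changed by -0.50 ± 0.29 (adjusted p = 0.313). A pair of secreted products under PPAR alpha control rose: Angptl4, an inhibitor of lipoprotein lipase, from 4.61, 4.77, 4.93 and 4.55 to 7.23, 5.67, 7.18 and 7.89, and Fgf21, a fasting hormone, from 4.56, 5.13, 4.77 and 5.24 to 7.18, 5.43, 6.12 and 7.62. Both varied among the re-fed rats, with P3r2 2 the lowest.

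Of the 5 measured ketone genes 1 rose and 1 fell, where 20% and 14.6% of the brighter genes did. Bdh1, which makes 3-hydroxybutyrate, read 5.52, 5.11, 5.03 and 4.95 in P3 and 10.73, 10.98, 10.61 and 10.83 in P3r2, with the groups more than 5 log2 units apart. Slc16a6, a ketone body carrier, changed by -0.77 ± 0.26 at an adjusted p of 0.05, and it was not called without P3 1, P3 3, P3 4, P3r2 1, P3r2 2, P3r2 3 or P3r2 4 (adjusted p from 0.058 to 0.158).

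Lipid droplet and fatty acid handling proteins rose in 10 of 16 measured cases and fell in 4 (median 1.04). Fabp1, the cytosolic fatty acid carrier of hepatocytes, read 7.37, 7.47, 4.27 and 5.77 in P3 and 12.07, 12.005, 12.09 and 12.06 in P3r2. The phase 3 animals differed among themselves by more than 3 log2 units, while the re-fed ones lay within 0.2 of each other. G0s2, an inhibitor of the lipase ATGL, read 4.94, 5.03, 4.79 and 4.92 and 10.26, 9.50, 10.20 and 10.51, and Plin2, a coat protein of lipid droplets, 6.65, 6.54, 7.32 and 7.19 and 10.06, 9.69, 10.26 and 10.47. In all 3 genes the groups lay apart. Cidec (2.01 ± 0.25), Cideb (1.09 ± 0.21) and Mgll (3.32 ± 0.34) rose as well. Fabp2, known as the intestinal fatty acid carrier, went from 2.497, 2.55, 2.81 and 2.59 to 6.08, 5.98, 5.51 and 6.15, where fed livers had 3.18 ± 0.29 (SD, n = 4) (P3r2 minus fed 2.75). Among those that fell were Acsl4 (-1.01 ± 0.18), an acyl-CoA synthetase, and Slc27a4 (-0.73 ± 0.16), a fatty acid transport protein. The count of 4 was 2 without P3 2 or without P3r2 4.

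Lipoprotein genes split. Apoa2 (1.79 ± 0.33) and Apom (2.64 ± 0.41), carried on high-density lipoprotein, rose, as did Lipc (2.52 ± 0.29), hepatic lipase, and Lrp1 (2.04 ± 0.20), a remnant receptor. Apoa5, which promotes clearance of triglyceride, fell from 11.70, 11.18, 11.80 and 11.58 to 9.60, 10.17, 10.15 and 10.13, as did Lpl (-1.53 ± 0.33) and Sort1 (-0.72 ± 0.14). In all, 6 of 14 rose and 3 fell, where 20% and 14.6% of the brighter genes did.

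Bile acid genes changed in both directions: of 18 measured genes 6 rose and 4 fell. Of the brighter genes, as 17 of the 18 were, 20% rose and 14.6% fell. Uptake carriers of the sinusoidal membrane were among the rises. Slco1b2 read 8.78, 8.11, 5.42 and 6.94 in P3 and 10.85, 10.84, 10.72 and 10.65 in P3r2, and Slc10a1 (NTCP), the sodium-dependent carrier, 9.37, 10.40, 5.98 and 7.79 and 11.08, 11.11, 11.15 and 11.16. In both, P3 3 was the lowest array, and the re-fed rats lay within 0.3 of each other. The carrier Slco1a4 (2.67 ± 0.25) rose too. Enzymes went both ways. Akr1d1 (2.26 ± 0.21), a reductase of the sterol ring, Amacr (0.93 ± 0.24), a racemase of the side chain, and Baat (1.61 ± 0.35), which conjugates bile acids, rose. Amacr rose by 0.60 without P3 3, and was not called after quantile normalization (adjusted p = 0.0581) or with the P3 and P3r2 arrays fitted alone (adjusted p = 0.0542). The initiating hydroxylases Cyp7a1 and Cyp27a1 fell: Cyp7a1, which sets the pace of bile acid production, went from 12.63, 12.76, 10.63 and 12.49 to 10.77, 10.50, 10.72 and 10.56, overlapping through P3 3, and Cyp27a1 from 12.04, 12.20, 12.21 and 12.15 to 10.81, 10.45, 10.91 and 10.90 with no overlap. The export pumps Abcc3 (-1.57 ± 0.34) and Abcb4 (-0.90 ± 0.21) fell.

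Genes that handle amino acids fell more often than they rose. In the urea cycle list 5 of 10 measured genes fell and 2 rose, with a median of -0.41. All 10 were brighter genes, of which 14.6% fell and 20% rose, so the rises were not above the background. Asl, which releases arginine, read 12.94, 12.96, 13.18 and 13.10 in P3 and 10.98, 11.14, 11.18 and 10.82 in P3r2, and Slc25a15, the mitochondrial ornithine carrier, 12.04, 11.88, 11.96 and 12.31 and 9.84, 10.33, 10.17 and 9.82. The groups were far apart in both. Arg1 (-0.94 ± 0.11), Ass1 (-0.49 ± 0.10) and Gls2 (-0.99 ± 0.14) fell by less. Cps1, the entry step, was not called (-0.30 ± 0.10, adjusted p = 0.0555). Otc, the second step of the cycle, rose from 8.94, 8.92, 4.43 and 7.70 to 10.93, 10.88, 10.83 and 10.67. P3 3 was the low array there, and without it the change was 2.30.

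Catabolic enzymes of single amino acids fell in 18 of 35 cases and rose in 10 (median -0.41). All 35 were brighter genes, of which 14.6% fell and 20% rose. Sds, which turns serine into pyruvate, read 12.06, 11.96, 12.06 and 12.03 in P3 and 8.69, 9.72, 8.88 and 6.23 in P3r2, with P3r2 4 lowest. Got1, the cytosolic aspartate aminotransferase, read 13.33, 13.29, 13.52 and 13.41 in P3 and 10.76, 11.28, 11.22 and 10.59 in P3r2, again without overlap. Of tyrosine breakdown, Tat (-1.22 ± 0.16), Hpd (-0.41 ± 0.09) and Hgd (-0.69 ± 0.16) fell. Tryptophan breakdown was split: its first enzyme Tdo2 (-1.21 ± 0.16) fell, while the later Kmo (1.31 ± 0.34), Kynu (1.01 ± 0.28) and Haao (0.61 ± 0.15) rose. The rise of Kmo was 0.87 without P3 3 and was not called with the P3 and P3r2 arrays fitted alone (adjusted p = 0.0602). Kynu was not called without P3 3, P3 4 or P3r2 2 (adjusted p from 0.0508 to 0.0553), and Haao was not called after quantile normalization (adjusted p = 0.0917). The falls also took in Hal (-1.19 ± 0.19) for histidine, Dbt (-1.43 ± 0.14) for branched-chain amino acids, and Mat1a (-0.92 ± 0.11), Gnmt (-1.57 ± 0.22) and Cbs (-1.51 ± 0.21) for methionine. The rises included Gldc (2.64 ± 0.42), which cleaves glycine, and Csad (2.16 ± 0.29), which makes taurine's precursor.

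Amino acid carriers at the cell surface fell in 9 of 23 cases and rose in 2. Of the brighter genes, as 18 of the 23 were, 14.6% fell and 20% rose, so the rises were not above the background. Slc38a2 (SNAT2), a carrier induced by amino acid lack, read 12.89, 12.88, 12.55 and 12.97 in P3 and 8.80, 9.42, 9.03 and 8.71 in P3r2, and the fed livers stood at 9.16 ± 0.32 (SD, n = 4). Slc1a2, a glutamate carrier, read 10.83, 10.39, 11.17 and 10.90 and 7.55, 7.43, 7.20 and 6.42. In each gene the groups lay more than 2 log2 units apart. Slc7a2 (-1.33 ± 0.22), the arginine carrier, Slc3a2 (-1.97 ± 0.17), the shared heavy chain of several carriers, and Slc1a4 (-2.68 ± 0.36) fell too. Slc6a6, the taurine carrier, was low at phase 3 and lower after re-feeding. It read 9.64, 8.78, 8.22 and 8.90 there, 6.90, 7.37, 6.89 and 5.96 after re-feeding and 10.20 ± 0.19 (SD, n = 4) in fed rats, so that P3r2 minus fed was -3.41 (adjusted p = 5.77e-05). Slc6a9, a glycine carrier, rose from 6.11, 6.53, 5.88 and 6.10 to 8.58, 8.37, 8.15 and 7.58.

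**Figure D3:**
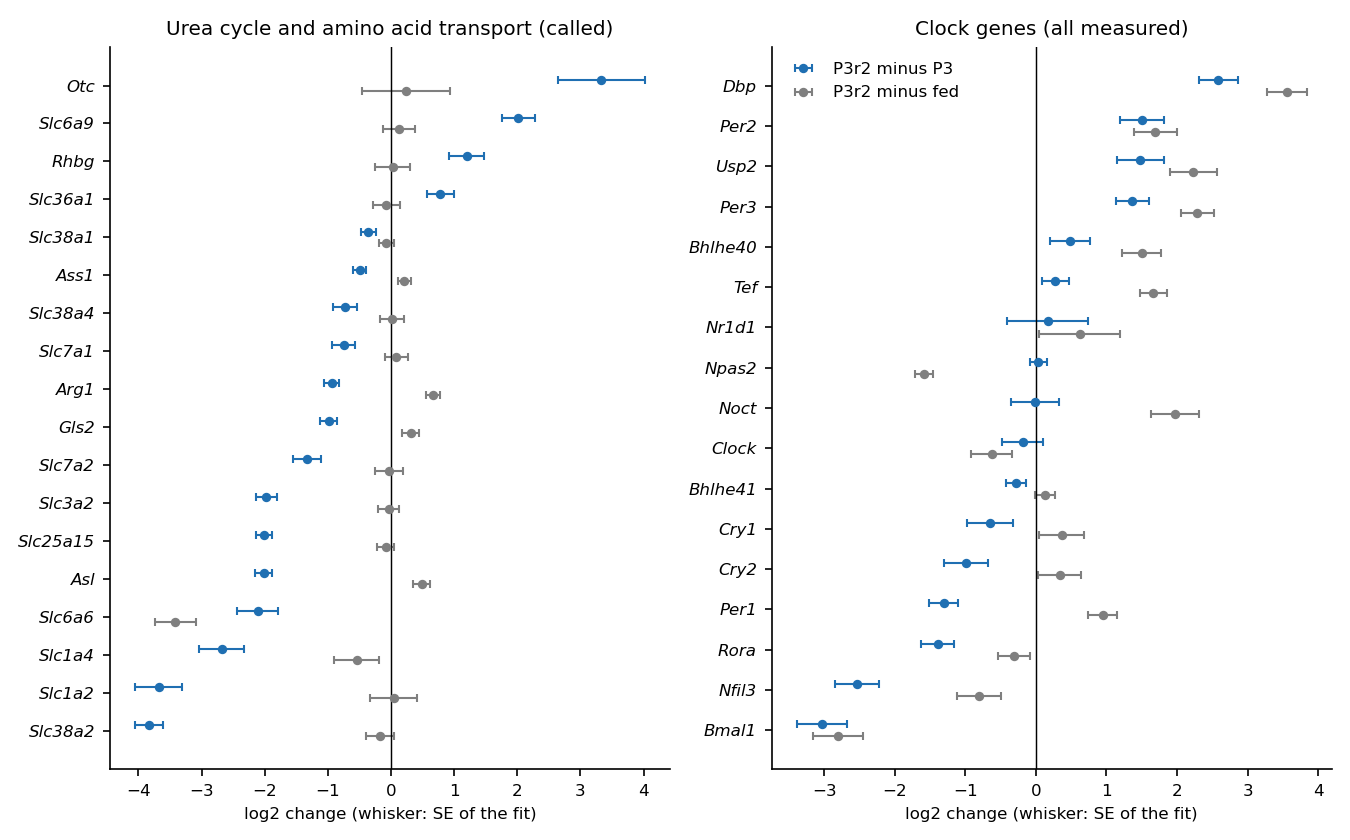
Log2 change, with the standard error of the fit, of the called genes of the urea cycle and amino acid transport (left) and of all measured clock genes (right). Blue is P3r2 minus P3 and grey P3r2 minus fed; on the left most grey points lie near 0 with Slc6a6 apart, and on the right Dbp and Bmal1 lie far from 0 in both.

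The amino acid response, run by the transcription factor ATF4, went both ways. Of 19 measured genes, 8 fell and 7 rose, with a median of 0.01. Of the brighter genes, as 15 of the 19 were, 14.6% fell and 20% rose. Several genes of the stress side fell. Atf4 itself read 10.07, 9.72, 10.48 and 10.28 in P3 and 8.91, 8.85, 8.89 and 8.95 in P3r2, Ddit4, an inhibitor of mTORC1, 10.21, 10.47, 10.28 and 10.80 and 6.06, 6.31, 6.29 and 6.58, and Chac1, which degrades glutathione, 7.24, 8.76, 9.01 and 9.30 and 5.29, 5.35, 5.005 and 5.38. No values overlapped in these 3 genes. Trib3 (-2.65 ± 0.23), Atf3 (-2.64 ± 0.22), Ppp1r15a (-2.34 ± 0.17), Cebpb (-1.72 ± 0.14) and Nupr1 (-1.70 ± 0.32) fell as well. On the synthetic side, Shmt2 (2.20 ± 0.22), Psph (1.53 ± 0.22), Psat1 (1.12 ± 0.26) and Phgdh (0.72 ± 0.17) make serine and glycine and rose. Asns, which makes asparagine, went from 4.88, 5.71, 5.43 and 5.78 to 6.62, 6.91, 5.84 and 6.25, with P3 4 just below P3r2 3. Fgf21, also on this list, rose (1.66 ± 0.43), and Ddit3 (CHOP) was not called (-0.17 ± 0.23). The stress and synthetic sides were not lists of their own.

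The binding element of ATF4 and C/EBP factors, searched as TGATGNAA on both strands, was found in 4 of 18 promoter windows of this list and in 1048 of all 27457 (3.82%). The share was no lower in the glucose output list, with 4 of 17 windows (Pck2, G6pc1, Got1 and Tat). The 4 genes of the ATF4 list are printed because 3 of them fell and Fgf21 rose, so a shared match went with changes of either sign. Capitals mark the match, which here lies on the strand opposite to the one printed, and the letters come from RefSeq, build GRCr8.
Trib3, chr3:161275534-161275584, minus strand: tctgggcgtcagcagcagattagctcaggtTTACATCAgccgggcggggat
Chac1, chr3:126795934-126796001, plus strand: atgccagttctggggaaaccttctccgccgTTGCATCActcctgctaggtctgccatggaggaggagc
Nupr1, chr1:190645919-190645986, minus strand: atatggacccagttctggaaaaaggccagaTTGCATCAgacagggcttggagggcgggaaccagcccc
Fgf21, chr1:105221482-105221549, minus strand: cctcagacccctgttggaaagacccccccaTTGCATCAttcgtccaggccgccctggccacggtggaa

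Binding proteins of insulin-like growth factors fell, while the growth hormone receptor and some of its targets rose. Igfbp1, which insulin represses, had the largest fall of all genes. It read 13.42, 13.37, 13.57 and 13.63 in P3 and 5.16, 5.49, 5.39 and 6.31 in P3r2, so that it fell by 7.91 on the log2 scale (SE 0.22, adjusted p = 1.82e-12), or 240-fold. The re-fed values also lay under the fed level of 7.52 ± 0.33 (SD, n = 4) (P3r2 minus fed -1.93, adjusted p = 0.000306). Igfbp2 went from 10.10, 9.80, 9.90 and 9.90 to 7.08, 7.20, 7.38 and 7.73 and Igfbp5 from 7.73, 7.56, 7.46 and 8.004 to 4.94, 4.81, 4.78 and 4.71. In all 3 genes the groups lay apart.

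Ghr, the growth hormone receptor, read 8.13, 7.97, 6.66 and 7.37 in P3 and 10.85, 10.97, 10.98 and 10.70 in P3r2. Igfals, which holds IGF-1 in its circulating complex, read 7.83, 7.72, 3.93 and 4.69 and 10.62, 10.43, 10.51 and 10.31, with P3 3 and P3 4 far below P3 1 and P3 2. Igf1 itself went from 11.23, 10.80, 8.48 and 9.50 to 11.48, 11.76, 11.67 and 11.32, a rise of 1.56 (adjusted p = 0.0144) that missed the threshold without P3 4 (adjusted p = 0.0508) and in a fit of the 8 arrays alone (adjusted p = 0.0764). Cyp2c11, a male-specific cytochrome P450 under growth hormone control, read 7.49, 6.60, 3.998 and 5.71 and 12.13, 12.40, 11.79 and 12.23. In Ghr, Igfals and Cyp2c11 every re-fed value was higher than every phase 3 value. Cux2, a female-type repressor, and Socs3, a feedback inhibitor of cytokine signalling, fell by 0.85 and 2.30. Over the list, 5 of 20 rose, 3 without P3 4, and 8 fell. Of the brighter genes, as 19 of the 20 were, 20% rose and 14.6% fell, so the count of rises was near the background.

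Genes that glucocorticoids induce fell, as did immediate early genes. In the glucocorticoid list 11 of 19 fell and 3 rose (median -1.22), some of which, such as Igfbp1, Pck1, Gadd45b, Tat and Ddit4, were given above or stand in other lists. Beyond those, Dusp1, a phosphatase of MAP kinases, read 11.11, 11.38, 11.35 and 11.47 in P3 and 8.57, 8.55, 8.72 and 7.98 in P3r2. Klf9 (-1.93 ± 0.25), Zbtb16 (-1.93 ± 0.45), Per1 (-1.31 ± 0.21) and Fkbp5 (-1.20 ± 0.39) fell, and Fkbp5 was not called without any 1 of P3 2, P3 3, P3 4, P3r2 1, P3r2 2, P3r2 3 or P3r2 4 (adjusted p from 0.0562 to 0.116) or with replicate number as a block (adjusted p = 0.0671). The receptor gene Nr3c1 changed by -0.70 ± 0.24 (adjusted p = 0.0513), with an adjusted p from 0.021 without P3 3 to 0.159 without P3 1. The rises were Hsd11b1 (1.35 ± 0.19), which regenerates corticosterone, Angptl4 (2.28 ± 0.36) and Sgk1 (0.93 ± 0.25), and Sgk1 was not called without P3r2 2 (adjusted p = 0.0549) or after quantile normalization (adjusted p = 0.0656). Serpina6, the plasma carrier of corticosterone, went from 5.35, 4.54, 4.33 and 5.93 to 10.43, 10.40, 10.79 and 10.48 with no overlap.

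Of 27 measured immediate early and C/EBP genes, 15 fell and 1 rose (median -0.62). Myc read 7.996, 8.92, 8.25 and 9.06 in P3 and 5.27, 5.62, 5.39 and 5.09 in P3r2. Klf6 went from 9.45, 9.56, 10.10 and 9.93 to 6.23, 6.57, 6.65 and 5.53, and Junb (-2.74 ± 0.47), Atf3 (-2.64 ± 0.22), Maff (-2.30 ± 0.25), Jun (-1.82 ± 0.35), Jund (-1.68 ± 0.15), Cebpb (-1.72 ± 0.14) and Egr1 (-1.65 ± 0.44) fell. In Junb and Egr1, P3 3 was the highest array of its group. The 1 that rose was Cebpa, a factor of hepatocyte identity, from 8.77, 8.58, 7.72 and 8.10 to 9.68, 9.39, 9.56 and 9.53.

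Of 18 measured genes of the growth arrest list 9 fell and 3 rose (median -0.67). Gadd45b, a stress-induced gene, read 11.26, 11.24, 11.90 and 11.74 in P3 and 5.17, 5.35, 5.31 and 5.25 in P3r2. Cdkn1a (p21), an inhibitor of cyclin-dependent kinases, read 10.10, 9.96, 10.73 and 10.63 and 4.68, 5.95, 6.03 and 6.08, below the fed level of 7.96 ± 0.59 (SD, n = 4) (P3r2 minus fed -2.27). Fst (follistatin), which binds activins, went from 8.73, 7.82, 8.55 and 8.96 to 3.80, 3.59, 3.78 and 3.65, while Inhbe, a liver activin subunit, went from 3.61, 3.58, 4.23 and 3.35 to 9.35, 9.24, 9.45 and 8.83. All 4 genes showed no overlap. Gadd45g (-3.20 ± 0.45), Btg1 (-1.40 ± 0.12) and Cdkn1b (-0.88 ± 0.12) fell too. The other two rises were Inhba (1.44 ± 0.23), another activin subunit, and Sesn3 (0.91 ± 0.17), a sestrin that restrains mTORC1.

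Of 44 measured genes of the cell cycle list 11 rose and 1 fell, where 13.5% and 9.92% of all genes did. The median change was 0.16, and only 15 of the 44 were among the brighter genes. Ccnd1 (cyclin D1), which starts the cycle in hepatocytes, read 5.75, 5.40, 4.81 and 5.54 in P3 and 7.401, 8.15, 7.83 and 7.46 in P3r2 and was at 8.51 ± 0.26 (SD, n = 4) in fed rats. Ccnd2 (1.23 ± 0.25), Mcm5 (1.13 ± 0.17) and Tyms (0.87 ± 0.19) rose. Every re-fed value of Ccnd1 lay above every phase 3 value and below every fed value. Its P3r2 minus fed was not called (-0.80, adjusted p = 0.123). The count of 11 was 6 without P3r2 2 and 6 without P3r2 3. Mcm7 fell by 1.08.

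Genes of ribosome building fell. Of 29 measured genes of ribosome biogenesis and RNA polymerase I, 19 fell and none rose, with a median of -0.86. At an unadjusted p below 0.05, 20 fell and 0 rose. Rrn3, an initiation factor of RNA polymerase I, read 9.08, 8.73, 9.33 and 9.26 in P3 and 7.82, 7.90, 8.03 and 7.54 in P3r2. Wdr43, a factor of the small subunit processome, read 9.27, 8.54, 9.29 and 9.43 and 7.11, 7.24, 7.54 and 7.10, and Polr1c, a polymerase subunit, 8.80, 8.68, 9.71 and 9.60 and 7.13, 7.31, 7.45 and 7.32. In each the 4 phase 3 values lay above the 4 re-fed values, and the fed means were 7.20, 6.49 and 6.60. P3 2 was the lowest phase 3 array in each. Gnl3 (-1.46 ± 0.26) and Nop58 (-1.19 ± 0.22) fell as well. Cytosolic ribosomal proteins fell in 6 of 16 measured cases and rose in none (7 and 0 at an unadjusted p below 0.05), but in 2 without P3 3, without P3 4 or without P3r2 1. Rplp0 (-0.81 ± 0.16) and Rpl23 (-0.50 ± 0.09) remained called whichever single array was left out.

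Genes of the secretory pathway rose. Of 36 measured genes of the endoplasmic reticulum (ER), 27 rose and 2 fell, with a median of 1.14. Pdia6, a disulfide isomerase, read 8.93, 9.14, 8.37 and 8.67 in P3 and 11.21, 11.22, 11.10 and 11.01 in P3r2. P4hb, another, read 9.97, 9.90, 9.63 and 9.76 and 12.02, 11.94, 11.92 and 11.85. Sec11c, a subunit of the signal peptidase, went from 5.67, 5.96, 5.78 and 5.73 to 8.72, 8.68, 8.57 and 8.81. The groups were separate by 1 log2 unit or more in each. The chaperones Hspa5 (0.81 ± 0.14), or BiP, Hsp90b1 (0.98 ± 0.18), Calr (1.91 ± 0.16) and Hyou1 (2.27 ± 0.19) rose. So did genes of translocation and glycosylation: Sec61a1 (1.15 ± 0.19), Tram1 (1.35 ± 0.10), Ssr1 (1.44 ± 0.16), Rpn1 (1.47 ± 0.13), Rpn2 (1.54 ± 0.16) and Ddost (1.13 ± 0.10). The 2 that fell were Edem1 (-1.75 ± 0.18), which steers misfolded glycoproteins to degradation, and Dnajb9 (-0.72 ± 0.20). Dnajb9, a co-chaperone of BiP, was not called without P3 3, P3 4, P3r2 1 or P3r2 3 (adjusted p from 0.0586 to 0.0686). Of 15 vesicle coat and Golgi genes 9 rose, among them Lman1 (1.81 ± 0.25), Sec24d (1.56 ± 0.23) and Copg1 (1.51 ± 0.20), and none fell. At an unadjusted p below 0.05, 11 rose and 0 fell.

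Some of these genes share the ER stress response element in their promoters. It was searched as CCAAT and CCACG with 9 bases between, on both strands, so each match also counts as a CCAAT match. It was present in 7 of 30 windows of the ER list and in 21 of 27457 promoters (0.0765%). Of the 7 genes, Hspa5, Hsp90b1, Calr and Dnajc3 rose, and Canx, Xbp1 and Ero1b were not called. Ero1b had a mean of 1.68 in P3 and 1.58 in P3r2, near the lowest value of the data (0.84). A change in it could hardly have been seen. The 3 printed are from genes that rose, with the element in capitals, from RefSeq, build GRCr8.
Hspa5, chr3:38452943-38453015, plus strand: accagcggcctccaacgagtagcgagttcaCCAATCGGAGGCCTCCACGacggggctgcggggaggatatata
Calr, chr19:40213117-40213183, plus strand: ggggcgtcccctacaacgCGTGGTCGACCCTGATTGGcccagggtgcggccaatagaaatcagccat
Dnajc3, chr15:102432504-102432582, plus strand: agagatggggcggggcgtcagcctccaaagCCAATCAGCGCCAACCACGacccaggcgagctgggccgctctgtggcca
In Calr the element lies on the opposite strand.

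The sterol element TCACNCCAC, searched on both strands, was in 310 of 27457 windows (1.13%), in 0 of 21 windows of fat synthesis genes and in 0 of 16 of cholesterol genes, which says only that these letters are not in the windows. CCAAT, which also occurs inside the ER element, was in 37.7% of all windows, 12 of 16 of the cholesterol windows and 22 of 30 of the ER windows.

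Genes of secreted plasma proteins rose. In the complement and coagulation list 19 of 33 rose and none fell (median 0.79), and at an unadjusted p below 0.05 22 rose and 1 fell. C9, a pore-forming complement component, read 9.69, 9.95, 8.11 and 7.85 in P3 and 11.36, 11.37, 11.50 and 11.27 in P3r2, and C3, the central component, 11.93, 12.07, 9.74 and 10.63 and 12.74, 12.69, 12.73 and 12.52. In both, P3 3 and P3 4 were low and the re-fed rats were close to each other and to the fed mean (11.60 and 12.74). The count of 19 was 11 without P3 4, 15 without P3 3 and 12 in a fit of these 8 arrays alone. Mbl2 (2.27 ± 0.42), a lectin that starts the complement cascade, C6 (1.71 ± 0.25), C8g (1.62 ± 0.25) and F2 (0.71 ± 0.15), prothrombin, rose.

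Plasma carriers rose in 12 of 24 cases and fell in 2 (median 0.25), and the 12 were 7 without P3r2 3. Besides Serpina6, Afm (3.20 ± 0.48), Itih2 (1.72 ± 0.31), Ttr (0.90 ± 0.10) and Ahsg (0.53 ± 0.09) rose. Lbp, the carrier of bacterial endotoxin, fell from 11.49, 11.78, 11.09 and 10.88 to 9.67, 9.46, 9.68 and 9.25 with no overlap. Alb rose by 0.26 (adjusted p = 0.0406) and was not called without any 1 array other than P3 2 (adjusted p from 0.0618 to 0.118), nor in the fit of 8 arrays alone or with a replicate block (adjusted p = 0.0833 and 0.0782).

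Antioxidant enzymes rose in 15 of 34 cases and fell in 3 (median 0.48), against 11 and 6 after quantile normalization. Cat (catalase), which removes hydrogen peroxide in peroxisomes, read 10.42, 10.31, 7.43 and 8.997 in P3 and 12.38, 12.42, 12.32 and 12.39 in P3r2. The phase 3 rats differed by almost 3 log2 units, with P3 3 and P3 4 lowest, and the re-fed ones lay within 0.2 of each other. Gpx1 (glutathione peroxidase 1) read 11.14, 11.54, 10.80 and 11.06 and 12.73, 12.82, 12.75 and 12.84, with no overlap, and Sod1 (1.15 ± 0.14), Prdx4 (1.74 ± 0.26) and Gclc (1.65 ± 0.26) rose. Prdx1 had the largest rise of the list, from 3.05, 2.14, 5.11 and 2.91 to 7.43, 6.86, 6.84 and 6.10, with a wide spread in both groups. Its phase 3 values other than P3 3 lay below the median row mean of 4.39, so the size and rank of its rise are uncertain. Hmox1 (heme oxygenase 1), an inducible stress enzyme, fell from 8.61, 8.49, 10.64 and 10.12 to 6.89, 7.45, 7.41 and 6.70, as did Gpx3 (-1.91 ± 0.31) and Srxn1 (-0.97 ± 0.14). In Hmox1, P3 3 and P3 4 were the high arrays, the reverse of Cat.

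Oxidases that make hydrogen peroxide rose alongside, in 7 of 17 cases, with 2 lower (median 0.47). After quantile normalization the counts were 6 and 3, and the median 0.25. Of the brighter genes, as 15 of the 17 were, 20% rose and 14.6% fell, so the 2 falls were not above the background. Hao1, which oxidises glycolate, read 8.37, 8.49, 4.31 and 6.32 in P3 and 11.84, 12.16, 12.01 and 12.05 in P3r2, and Dao (3.82 ± 0.37), Hao2 (2.94 ± 0.23) and Maob (2.23 ± 0.40) rose. Glutathione S-transferases rose in 8 of 15 cases and none fell; at an unadjusted p below 0.05 10 rose and 0 fell. Gstp3 read 6.93, 6.39, 5.78 and 6.69 and 11.30, 11.30, 11.60 and 11.71, and Gstt1 5.92, 6.15, 5.78 and 6.07 and 9.01, 8.78, 8.84 and 8.89, both with no overlap. Of 26 cytochromes P450 and their regulators 7 rose and 3 fell, or 7 and 5 after quantile normalization. All 26 were brighter genes, of which 20% rose and 14.6% fell, so the 3 falls were not above the background. Of 11 genes of the conjugation list 4 rose and none fell (6 and 2 at an unadjusted p below 0.05), and 2 fell after quantile normalization. The 4 were the transferases Sult1c3 (4.19 ± 0.50) and Ugt2b35 (0.88 ± 0.24), the epoxide hydrolase Ephx1 (2.27 ± 0.16) and Ugdh (1.79 ± 0.16), which makes the glucuronosyl donor. Ugt2b35 was not called without P3 3 or P3 4 (adjusted p from 0.0521 to 0.0585). Cyp1a2 (3.04 ± 0.50), Cyp17a1 (3.23 ± 0.38) and Cyp2c13 (2.67 ± 0.39) rose, and Cyp26a1 (-2.26 ± 0.43), which degrades retinoic acid, fell. Por, the electron donor of microsomal P450s, fell from 12.35, 12.20, 12.16 and 12.29 to 10.71, 10.95, 10.78 and 10.96 and stayed above the fed level of 8.85 ± 0.23 (SD, n = 4) (P3r2 minus fed 2.000). Members of the P450 and transferase families are near copies of each other, so their rows may share signal.

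Of 18 measured heme and iron genes 8 rose and 4 fell, or 7 and 5 after quantile normalization. All 18 were brighter genes, of which 20% rose and 14.6% fell. The rises took in the heme synthesis genes Alad, Ppox, Uros, Urod and Cpox, by 0.47 to 1.96, and also Blvrb, Cp and Blvra. The falls were Hmox1, given above, Hamp, Ireb2 and Id1. Hamp (hepcidin), the hormone that limits iron uptake, fell from 12.96, 13.12, 13.61 and 13.32 to 8.21, 11.96, 12.09 and 11.63, and without P3r2 1, the low re-fed array, the change was -1.36 (adjusted p = 0.000883). In the fit of 8 arrays alone Hamp was not called (adjusted p = 0.0771).

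Autophagy and lysosome genes fell in 8 of 30 cases and rose in 5. All 30 were brighter genes, of which 14.6% fell and 20% rose, so the rises were not above the background. Map1lc3b (LC3B), which coats autophagosomes, read 12.03, 12.06, 12.51 and 12.35 in P3 and 9.91, 9.86, 9.99 and 9.97 in P3r2, Ctsl (cathepsin L) 12.42, 12.28, 12.64 and 12.52 and 10.07, 10.05, 10.38 and 10.28, and Gabarapl1 9.71, 9.28, 9.47 and 9.44 and 7.25, 7.33, 7.20 and 7.30. In all 3 the groups lay about 2 log2 units apart, with little spread within either. Bnip3l (-1.04 ± 0.16) fell, and Npc1 (2.01 ± 0.28) and Lipa (1.22 ± 0.27), which handle lysosomal cholesterol, rose. Fbxo32 (atrogin-1), a ubiquitin ligase, fell from 6.50, 5.76, 5.37 and 6.34 to 3.75, 3.31, 3.83 and 3.45. Of the 28 genes of the proteasome list, to which Fbxo32 belongs, 4 rose and 3 fell, and after quantile normalization 2 and 5. Of the brighter genes, as 27 of the 28 were, 20% rose and 14.6% fell. Neither count as deposited was above the background. Psmb8 and Psmb9, subunits of the immunoproteasome, went from 6.75, 7.14, 6.80 and 6.69 to 9.43, 9.70, 9.38 and 9.40 and from 5.43, 5.68, 5.59 and 5.70 to 7.95, 7.96, 7.87 and 7.73.

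In mitochondria, respiratory chain genes barely moved: 3 of 37 rose and 2 fell (median 0.00), and after quantile normalization 2 rose and 9 fell (median -0.23), so no direction is given. The carrier and citric acid cycle list had 11 rises and 7 falls among 30, or 10 and 9 after quantile normalization. Of 13 aminoacyl-tRNA synthetases 1 rose and 2 fell, or 1 and 5 after quantile normalization, and of 25 nuclear receptors 5 rose and 4 fell, or 4 and 9. Nearly all members of these lists were brighter genes, of which 20% rose and 14.6% fell. The nuclear receptor counts as deposited were near those shares. Pdk1, a pyruvate dehydrogenase kinase, read 7.18, 7.17, 7.03 and 7.01 in P3 and 9.60, 9.36, 9.48 and 9.23 in P3r2, and Slc25a10 (2.95 ± 0.43) and Mdh2 (0.67 ± 0.08) rose. Slc25a25 (-2.23 ± 0.25), Slc25a22 (-1.52 ± 0.21) and Slc25a47 (-1.40 ± 0.22) fell.

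Clock genes differed in a pattern that the time of sampling could also set, and the sources used here do not state that time, so feeding and hour cannot be told apart. Bmal1, the core activator, read 8.07, 6.95, 6.85 and 7.69 in P3 and 4.17, 3.66, 5.01 and 4.61 in P3r2, against 7.17 ± 0.51 (SD, n = 4) in fed rats. Dbp, an output that runs opposite to it, read 7.65, 7.88, 7.18 and 7.94 and 10.62, 10.73, 10.08 and 9.59, against 6.69 ± 0.04 (SD, n = 4). P3r2 minus fed was -2.80 for Bmal1 and 3.56 for Dbp. In both genes the re-fed arrays overlapped neither phase 3 nor fed. Per2 (1.51 ± 0.31), Per3 (1.37 ± 0.24) and Usp2 (1.48 ± 0.34) rose, Per1 (-1.31 ± 0.21), Rora (-1.39 ± 0.23) and Nfil3 (-2.53 ± 0.31) fell. Cry2 fell by 0.99 but was not called without P3 1, P3 4, P3r2 1, P3r2 2, P3r2 3 or P3r2 4 (adjusted p from 0.0515 to 0.109). In all, 4 of 17 rose and 5 fell, where 20% and 14.6% of the brighter genes did.

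**Figure D4:**
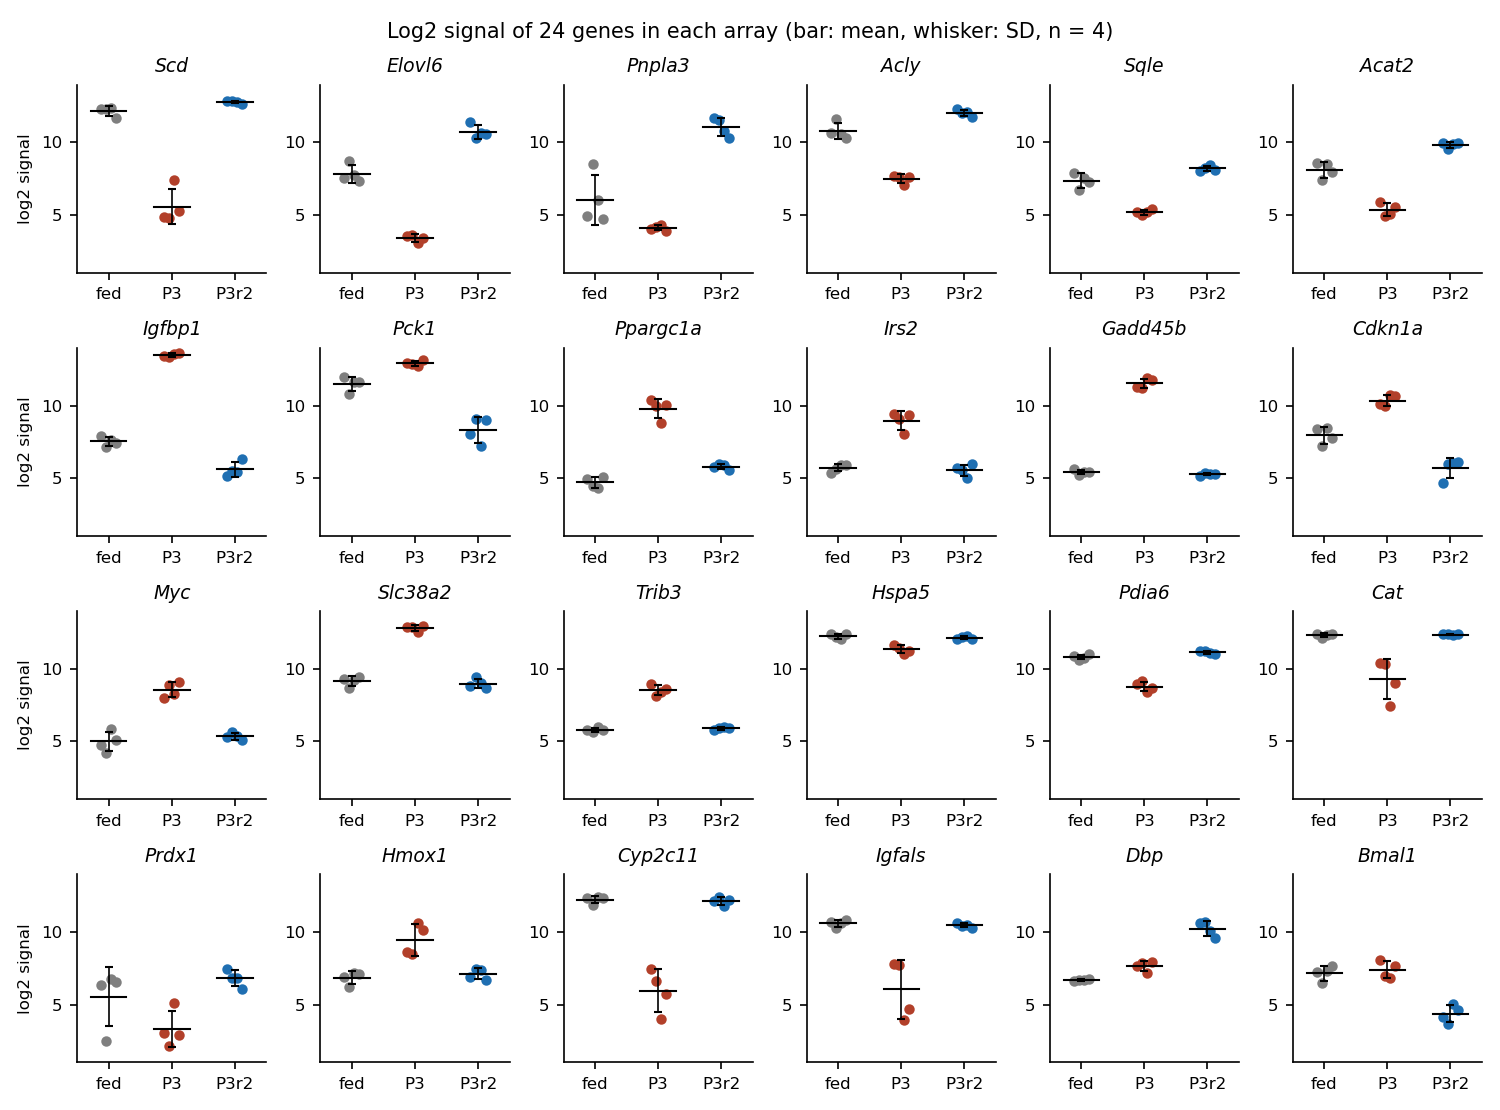
Log2 signal of 24 named genes in each fed, P3 and P3r2 array (points), with the mean (bar) and standard deviation (whisker) of 4 arrays. In Scd, Elovl6 and Pnpla3 the re-fed points lie far above phase 3, in Igfbp1, Pck1 and Gadd45b far below, and in Cat and Igfals the phase 3 points are the spread ones.

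Markers of other liver cells moved in few cases. Over all genes 13.5% rose and 9.92% fell, and among the brighter genes 20% and 14.6%. In lists this short, a count of 1 or 2 cannot be told from those shares. Of 12 macrophage markers 2 fell, C1qb (-0.83 ± 0.27) and C1qc (-0.89 ± 0.27), the C1q chains. C1qb was not called without any 1 array other than P3 1 (adjusted p from 0.0546 to 0.135), nor C1qc without P3 3, P3 4, P3r2 1, P3r2 2 or P3r2 4 (from 0.0555 to 0.0909). The summed signal of the list lay between 11.57 and 12.30 in P3 and 11.59 and 11.89 in P3r2. Of 8 stellate cell and fibroblast markers Dcn (decorin) fell, from 9.15, 8.95, 10.53 and 10.17 to 6.06, 5.19, 6.47 and 5.82, and Lrat (1.18 ± 0.22) rose, with summed ranges of 10.36 to 11.38 and 9.77 to 10.39. Among 8 T and natural killer cell markers 2 rose, and the sums of the list were 6.92 to 7.21 in P3 and 7.22 to 7.60 in P3r2. Of 8 neutrophil markers 1 rose and 1 fell, with sums of 7.13 to 7.41 and 7.61 to 7.79. Of 5 endothelial markers 1 fell, with sums of 9.18 to 9.95 and 8.75 to 9.34. Of 5 platelet markers 1 rose, and of 6 adipocyte markers 2 fell, Fabp4 and Lipe, which are also among the 4 falls of the lipid droplet list. The adipocyte sums were 7.21 to 7.43 in P3 and 6.91 to 7.05 in P3r2. Of the sums given in this paragraph, those of the adipocyte, neutrophil and T and natural killer cell lists did not overlap between the groups. Only 3 of the 6 adipocyte, 2 of the 8 neutrophil and 4 of the 8 T and natural killer cell markers were brighter genes. Fabp4 was not called without any 1 array other than P3 1 (adjusted p from 0.0536 to 0.119) or with replicate number as a block (adjusted p = 0.0515), nor Lipe without P3 1, P3 2, P3 4 or P3r2 4 (from 0.055 to 0.0724). None of 2 B cell, 3 bile duct, 4 red cell, 7 pancreas or 6 muscle markers was called, and at an unadjusted p below 0.05 1 red cell marker was higher. Extracellular matrix genes fell in 2 of 26 cases, Dcn among them. Of the markers of liver zones, periportal genes fell in 5 of 9 cases and rose in 2, pericentral ones fell in 3 of 8 and rose in 2. The part of these cells in the changes above was not tested.

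**Figure D5:**
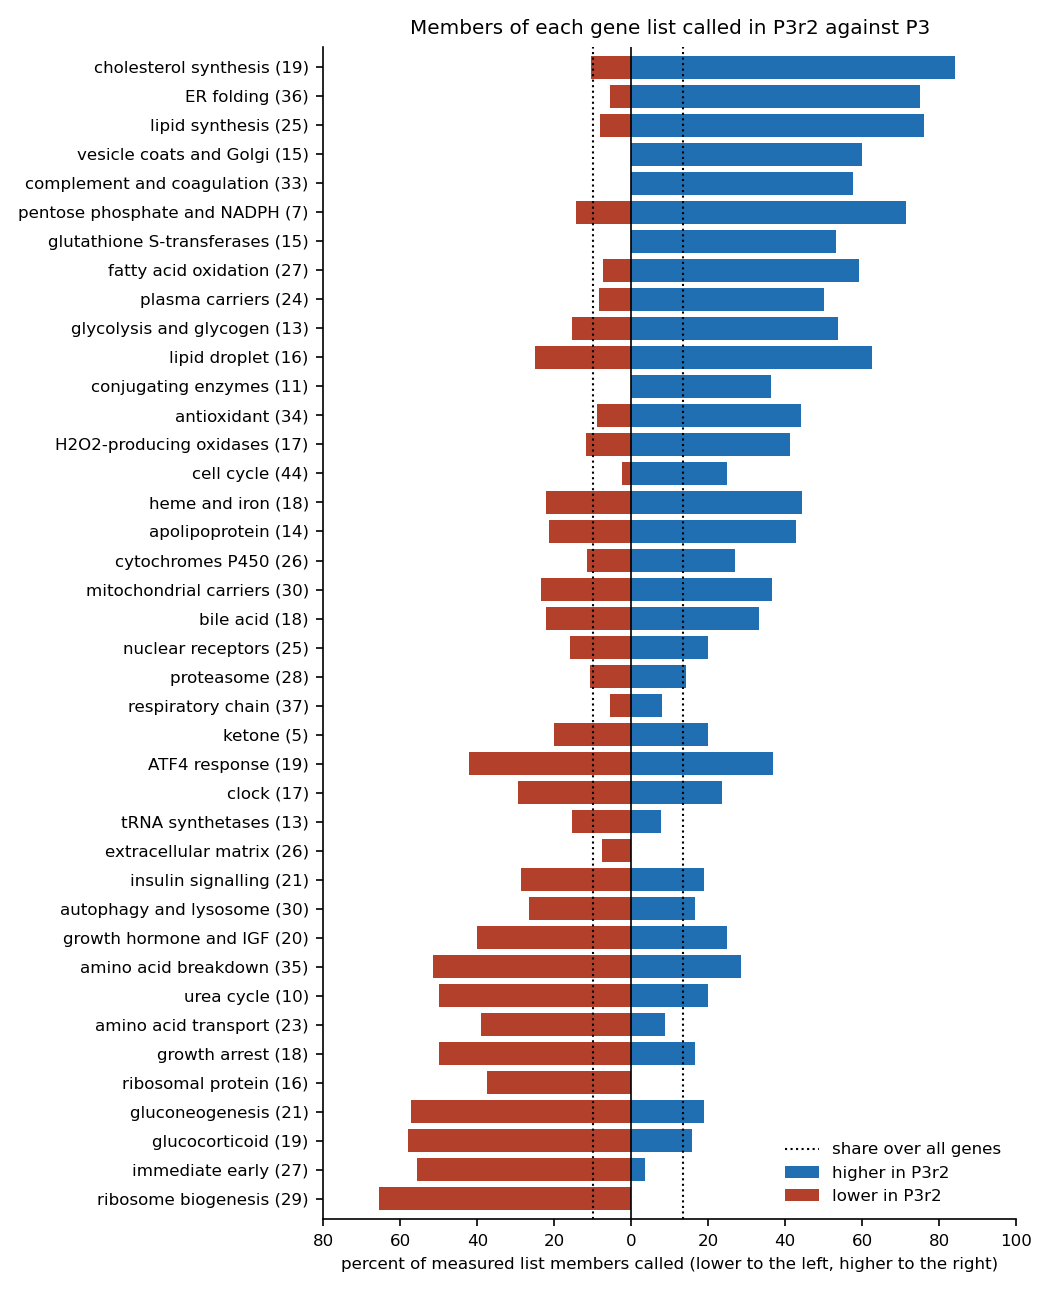
Percent of the measured members of each gene list (number in brackets) called higher (blue, right) or lower (red, left) in P3r2 against P3, with dotted lines at the share over all genes. Lipid and cholesterol synthesis and ER folding have the longest blue bars, ribosome biogenesis, glucocorticoid and gluconeogenesis the longest red ones. The counts are those given with each list in the text.

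Against fed rats, far fewer genes were called after re-feeding than at phase 3. In P3r2 against fed, 381 genes (2.88%) were higher and 86 (0.651%) lower, while in P3 against fed 1927 (14.6%) were higher and 1334 (10.1%) lower. These comparisons share the P3r2 or the P3 arrays with the one above, so their values stand side by side. The count against fed was sensitive to single arrays: 514 rows in all, but 242 to 302 without any 1 of the P3r2 arrays and 318 without fed 2. With array weights it was 1467 rows.

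After 2 days of food, 9 of 25 genes of fat synthesis and 4 of 19 of cholesterol synthesis stood above fed, and 1 of the cholesterol list, Insig2, below. Besides Pnpla3, Elovl6 and Fabp2, Hsd17b2 (2.55, adjusted p = 7.2e-06) and Me1 (2.01, adjusted p = 0.0102) stood above. Asns (1.76), from the amino acid response, was higher too. Below fed stood Dhrs7l1, a short-chain dehydrogenase by its name, which read 4.43, 3.39, 2.25 and 3.08 in P3, 6.31, 7.74, 3.67 and 6.44 in P3r2 and 10.47 ± 0.41 (SD, n = 4) in fed rats, with P3r2 3 inside the phase 3 range and P3r2 minus fed at -4.43 (adjusted p = 0.00285). Slc22a8, an organic anion carrier, and Slc34a2, a phosphate carrier, rose with re-feeding by 4.05 and 2.28, and P3r2 minus fed was -2.17 and -2.36. In these 3 genes the re-fed mean lay between the phase 3 and the fed mean. The globin gene Hbb-b1 was lower than in fed rats, with P3r2 minus fed at -2.63 (adjusted p = 0.00945), and not called against P3 (-0.56 ± 0.49).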

How the data were processed

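Liver RNA of 16 rats was measured on Affymetrix Rat Exon 1.0 ST arrays, and the authors deposited 1 value per transcript cluster and array. GCOS 1.4 and Affymetrix Expression Console 1.1 made the values, per the submitters' processing notes. Summarisation, background correction and genome build were not given in the sources used here. Their range marked the deposited values as log2 signals (0.84 to 13.6). Array medians lay between 4.34 and 4.46, and nothing was rescaled in the main fit. The spread of the arrays was less even than their medians. The upper quartile lay 1.68 (P3 3) to 2.11 (P3 1) above the median in P3, and 1.83 (P3r2 4) to 2.12 (P3r2 3) in P3r2. Precision is limited by how many arrays there were.

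Of 19418 rows, 533 were left out because their identifiers were not those of the main clusters, and 18885 were tested. Platform annotation, updated through RefSeq, gave 1 symbol to 13327 rows, several to 620 and none to 4938. Genes with several rows used the row of highest mean signal. limma 3.58.1 (R 4.3.3) fitted 1 mean per group over all 16 arrays (12 residual and 3.21 prior degrees of freedom), then eBayes and two-sided tests, adjusted by Benjamini-Hochberg. The fit was tested on simulated data. P-values rest on 4 animals a group.

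The genes open to naming were the 15 largest rises and falls among called genes whose groups did not overlap. At most 6 called members of a list in each direction, and 52 measured key genes, were open to naming too. The text names a part of these, and Top2a, Mki67 and Nr1d1 are among the key genes left out. Other list members named were chosen after their values were seen. Members and lists were chosen with earlier results of these data known. The 40 pathway lists hold 1132 genes, 845 of them measured. Alternatives were quantile normalization, median centring, limma's trend and robust options, array weights, P3 and P3r2 alone, brighter rows only, a replicate block, a threshold of 0.01, row means, the length trend and each array left out. Plots used matplotlib 3.10.9 and tables pandas 2.3.3.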

Additional observations from a re-analysis of the deposited data

Results flagged for a closer look

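Over the 308 genes named, with 2 groups each, 616 sets of 4 values were checked for 1 array far from the other 3, by Dixon's ratio. The check marked 29, and chance marks about 5% of such sets. P3 3 was the array marked in 10 of them.

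In the phase 3 group, P3 3 read low for Idh1, at 7.72 where the others ran from 9.59 to 9.65. It was also low for Cyp7a1 (10.6, others 12.5 to 12.8), Zbtb16 (7.78, others 9.21 to 9.28), Irs1 (8.02, others 8.82 to 8.98), Per2 (5.46, others 6.10 to 6.21) and Amacr (8.88, others 10.1 to 10.3). Acly (7.03, others 7.61 to 7.67), Uros (5.68, others 6.18 to 6.23), Acsl4 (11.1, others 11.4) and Alb (12.98, others 13.15 to 13.18) were the remaining genes low in P3 3. P3 2 was low for Gk (7.70, others 7.98 to 8.03), and P3 4 was high for Hgd (12.68, others 11.98 to 12.07).

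In the re-fed group, P3r2 1 was far below the others for the iron hormone Hamp, at 8.21 against 11.6 to 12.1, and for Cdkn1a, at 4.68 against 5.95 to 6.08. It was low for Apoa5 (9.60, others 10.1 to 10.2) and Ugt2b35 (9.47, others 9.66 to 9.68) and high for Slc2a5 (8.74, others 8.27 to 8.32). P3r2 2 was high for Psat1 (7.57, others 6.61 to 6.66), Hao2 (10.3, others 9.78 to 9.87) and Psmb8 (9.70, others 9.38 to 9.43), and low for Ebp (10.68, others 10.95 to 10.99). P3r2 3 was low for Me1 (9.85, others 10.7 to 10.8) and Acadl (9.54, others 9.78 to 9.82) and high for Lpl (5.44, others 4.63 to 4.76). P3r2 4 was low for Tsc2 (6.84, others 7.37 to 7.42), Junb (4.69, others 5.03 to 5.09), Ehhadh (10.71, others 10.97 to 10.99), Slc27a4 (5.67, others 5.89 to 5.92) and Ass1 (12.88, others 12.95 to 12.96).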

How the results depend on the processing

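The row counts of P3r2 against P3, 1975 higher and 1498 lower, lay between 1643 and 1920 and between 1145 and 1510 with 1 array left out, and within 1.5 times of the reported counts under the other settings, except that 890 were lower at a threshold of 0.01. Quantile normalization gave 1894 higher and 2024 lower. With replicate number as a block the counts were 1876 and 1396. Animals of the same number did not deviate together: across genes the correlation of their deviations was 0.11, -0.02, -0.13 and -0.22, so the numbers were not taken to pair the samples. P3r2 against fed, 514 rows, was 1467 with array weights, 169 at a threshold of 0.01 and 242 to 624 with 1 array left out. The alternatives for P3 against fed stayed within 1.5 times. The comparisons with fed under these settings, and leaving out fed 2, P2 4 and P3 3 together (2142 higher, 1842 lower), were chosen after seeing the data. Of the 297 called genes named, 278 kept their call under every setting but the stricter threshold. Xbp1, not called, ran from -0.14 to 0.0040 with 1 array left out, and changed sign without P3r2 1. The cause of these shifts was not tested.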
